A study of Mus musculus with 6 samples.

Results

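The mouse nose expresses many enzymes that modify odorants and inhaled chemicals, and 77 genes of these enzyme families were described across 6 olfactory mucosa libraries. The genes were chosen by symbol and level. Their symbols begin with Cyp1 to Cyp4 (cytochromes P450), Ugt1a, Ugt2a or Ugt2b (UDP-glucuronosyltransferases), Gsta, Gstm, Gstp, Gstt or Gsto (glutathione S-transferases), Sult (sulfotransferases) or Fmo (flavin-containing monooxygenases). A gene was kept where its normalized count, the deposited read count scaled by a library size factor, was at least 10 in at least 3 of the 6 libraries. Of 171 genes with a matching symbol among the 40273 in the table, 77 met that level and 94 did not. All genes of any kind that met the same level, 20368 in number, entered the test.

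The mice were 3 males that lacked the eC element (eC deletion) and 3 wild type males. All 6 were at postnatal day 30 on the mixed background 129S6;C57BL/6J, and the design text treats each as a separate animal. The element, 1005 bp at chr7:102916999-102918004 (read here as GRCm38, since no build is stated beside it), is named in the series title as an enhancer of class I odorant receptor genes. Whether the mutant mice descend from 1 founder is not given in the sources used here. The question for the enzyme genes is whether their levels differ when the element is missing.

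Detoxifying enzymes of the nose are grouped in phases. In phase I, cytochromes P450 and flavin-containing monooxygenases add or expose a reactive oxygen-bearing group. In phase II, transferases attach glucuronic acid, glutathione or sulfate, which makes the product soluble and easier to export. In the olfactory mucosa these enzymes are known mainly from the sustentacular cells that surround the sensory neurons and from Bowman's glands, where they are thought to clear odorants and to metabolize toxicants.

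Cyp2a5 and Cyp2a4 lie in the same gene cluster and encode very similar P450s, and their levels as counted were far apart in this tissue. Their promoters, from 250 bases before to 50 bases after the gene start (RefSeq, GRCm38.p6, both on the plus strand, chr7:26835089-26835388 for Cyp2a5 and chr7:26306942-26307241 for Cyp2a4), are given here 5′ to 3′ with the bases that differ between them in capitals.
Cyp2a5: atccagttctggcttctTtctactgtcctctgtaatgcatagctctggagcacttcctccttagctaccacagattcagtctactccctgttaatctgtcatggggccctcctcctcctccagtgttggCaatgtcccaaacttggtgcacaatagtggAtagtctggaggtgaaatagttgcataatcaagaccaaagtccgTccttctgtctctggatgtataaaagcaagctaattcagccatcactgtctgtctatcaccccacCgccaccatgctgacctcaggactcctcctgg
Cyp2a4: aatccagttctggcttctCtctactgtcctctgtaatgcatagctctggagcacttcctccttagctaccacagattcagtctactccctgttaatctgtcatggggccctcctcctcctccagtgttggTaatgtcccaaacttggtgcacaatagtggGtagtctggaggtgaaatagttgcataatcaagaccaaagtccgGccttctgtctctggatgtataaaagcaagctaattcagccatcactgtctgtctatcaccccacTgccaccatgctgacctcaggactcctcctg
Over 299 aligned bases, 294 were identical (98.3%) and 5 differed, and 1 base at an end of each window had no partner. The letters TATAAA occur in both. Per kb of exon, the mean level of Cyp2a5 as counted over all libraries was 993 times that of Cyp2a4. Without scaling to length, the ratio of their normalized counts was 2893, 1479 and 974 in deletion libraries and 999, 1097 and 940 in wild type libraries. Of the 50-base windows of the Cyp2a4 transcripts, 38.0% also occur in another gene, mostly Cyp2a5, and 37.0% of those of Cyp2a5 are shared, so the division of reads between this pair is uncertain.

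Motifs were searched on both strands. TATAAA, the core of the TATA box, occurred in 15 of the 75 RefSeq promoters found for 61 of the enzyme genes (20%) and in 13.6% of all 32851 promoters in the table. Its holders included Cyp1a1, Cyp1a2, Sult1c1, Sult1d1, Ugt2a1 and Ugt2a2 besides the Cyp2a pair. GCGTG, the core letters bound by the aryl hydrocarbon receptor with its partner Arnt, occurred in 26.7% of the enzyme promoters and 32.4% of all promoters. TGACNNNGC, the core of the antioxidant response element, occurred in 10.7% and 12.4%. Such matches describe the letters of the window only.

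Between 30342763 and 50906277 reads were assigned to genes in each library. The gene that the deleted element overlaps, Olfr571, had a normalized count of 0 in all 3 deletion libraries, against 45.1, 44.8 and 39.5 in the wild type libraries. The libraries also fell into 2 sets that crossed the genotypes. Set A held deletion replicates 1 and 2 and wild type replicate 1, with 26564 to 27879 genes with a read, and set B held deletion replicate 3 and wild type replicates 2 and 3, with 36197 to 37456. The leading principal component, with 66.1% of the variance, separated the sets, and the labels give no batch that matches it. Each library differed from the others of its genotype by more than sampling noise. Markers of neurons, sustentacular cells and Bowman's glands were abundant, and their values stand with the marker lists.

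Levels were the basis of the choice and are given without a test. The enzyme genes together took 2.10% ± 0.08 of all reads in deletion libraries and 2.22% ± 0.09 in wild type libraries (SD, n = 3 each). The P450s took most of this, with 1.66% ± 0.04 in deletion and 1.74% ± 0.08 in wild type libraries. The glutathione S-transferases took 0.179% in deletion and 0.190% in wild type libraries, and the sulfotransferases 0.170% in deletion and 0.188% in wild type libraries. The flavin-containing monooxygenases took 0.0881% in deletion and 0.0910% in wild type libraries. The glucuronosyltransferases, as counted, were far below the rest, with 0.00338% in deletion and 0.00365% in wild type libraries. Several share much of their exon length with other genes on the same strand, among them Ugt2a1 (98.8%), Ugt2a2 (94.5%) and Ugt1a7c (54.6%). How such reads were counted is not given, so the level of this family is uncertain. Just 3 P450 genes, Cyp2a5, Cyp2g1 and Cyp2f2, held 71.9% of the reads of the 77.

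**Figure D1:**
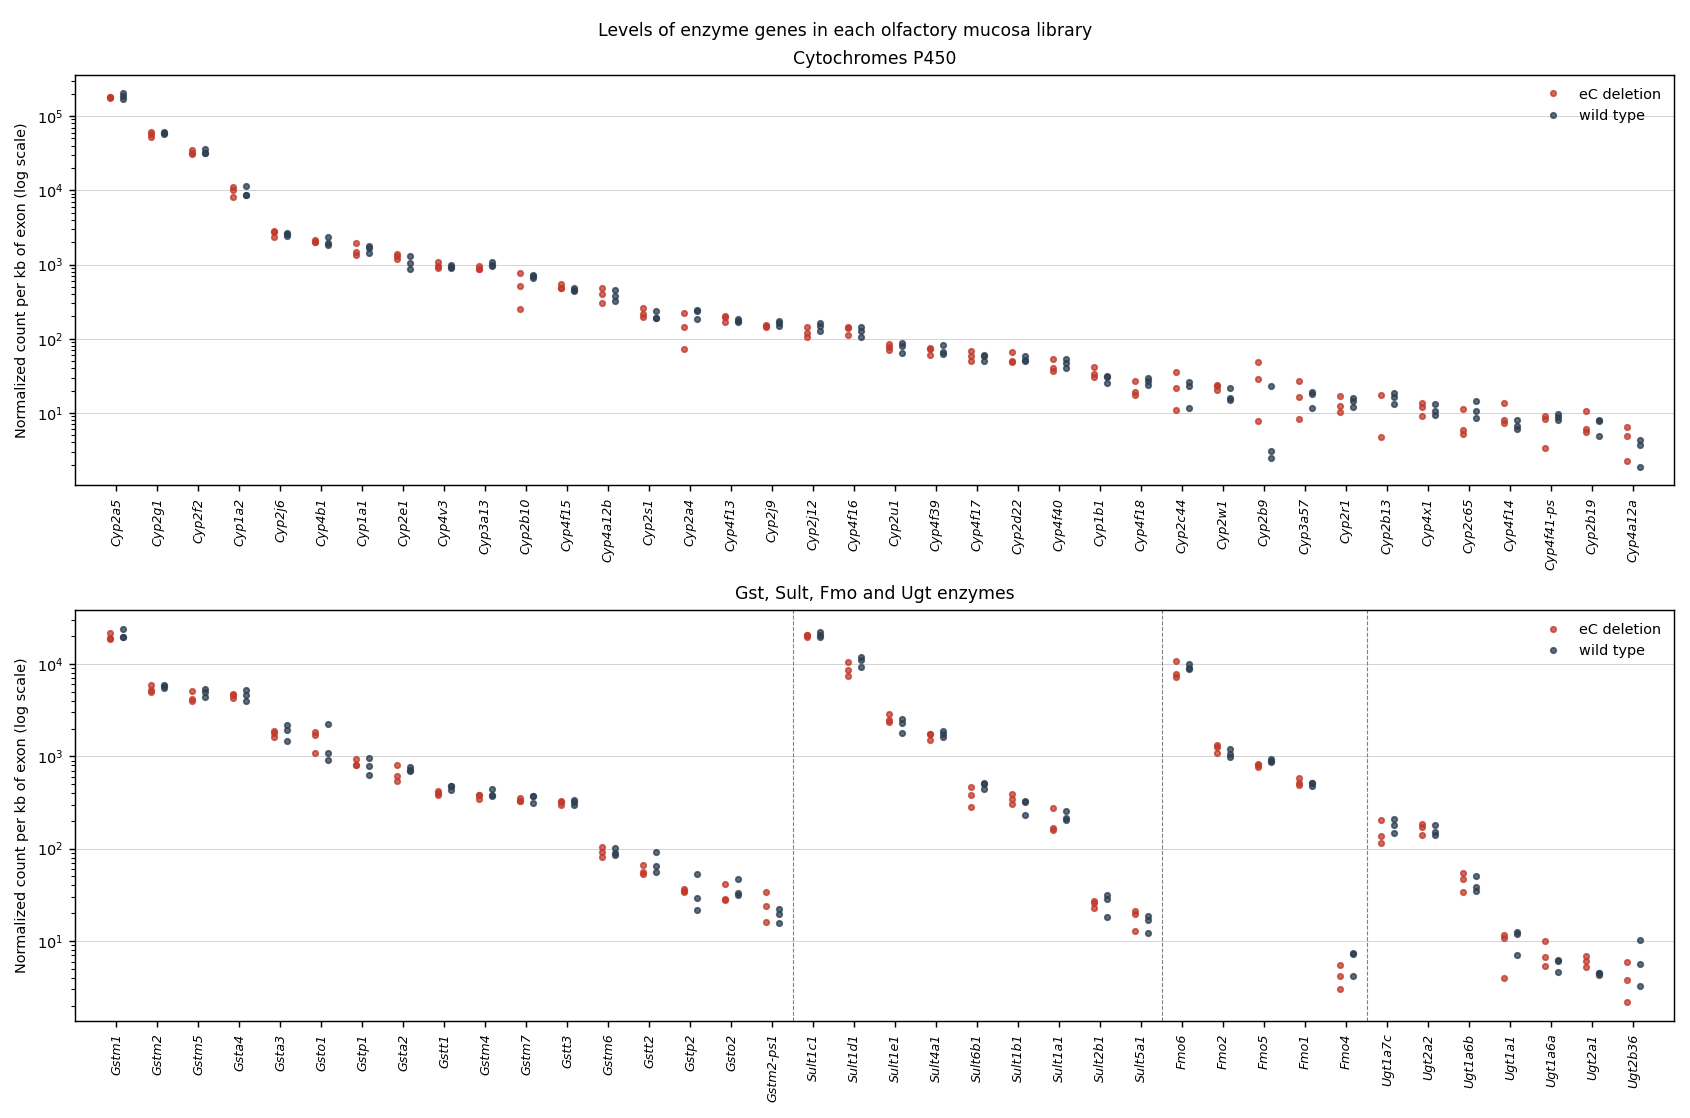
Normalized count per kb of exon (log scale) of the enzyme genes in the 3 eC deletion libraries (red) and the 3 wild type libraries (dark blue), P450s above and the other families below, each family ordered by level. Cyp2a5, at 178980 in deletion and 188125 in wild type libraries, stands above all others, and the points of the 2 genotypes lie close together for most genes; Cyp2b13 in deletion replicate 1 is 0 and is not drawn.

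Of the 5 genes given as markers of the enzyme-bearing nasal cells, 4 were abundant and 1 was not. They are the protein-coding genes Cyp2a5 (chr7:26835305-26843548), Cyp2g1 (chr7:26808892-26821205), Cyp1a2 (chr9:57676937-57683703), Sult1c1 (chr17:53961615-53990674) and Ugt2a1 (chr5:87459490-87490871, GRCm38). Per kb of exon, Cyp2a5 was at position 10 of the 20368 genes tested, Cyp2g1 at 26, Sult1c1 at 55 and Cyp1a2 at 118. Ugt2a1 was at position 18905, with normalized counts of 13.4, 17.7 and 15.7 in deletion libraries and 11.1, 11.5 and 11.6 in wild type libraries. Ugt2a1, an olfactory enzyme that attaches glucuronic acid to odorants, shares 98.8% of its exon length on the same strand with Ugt2a2 and a predicted gene. Reads from shared exons cannot be assigned to either gene, and how the authors counted them is not given in the sources used here. The level of the Ugt2a1 transcript is therefore uncertain.

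No enzyme gene differed between the genotypes past the test. By limma with Benjamini-Hochberg adjustment over all genes, 0 of the 77 passed an adjusted p of 0.05, against 15 of all 20368 (0.0736%), and the smallest adjusted p of an enzyme gene was 0.982. At an unadjusted p under 0.05 there were 2 of 77 (2.6%), against 2.70% of all genes tested. By edgeR's quasi-likelihood test on the recovered reads, which covered 76 of the 77, 0 passed. At an unadjusted p under 0.05 it had 2 (2.63%, against 2.74% of all genes in that fit). By DESeq2 0 passed, with 3 at that level (3.90%). The share over all genes was 0.98% there, taken over 40273 genes without the level filter. In the authors' deposited table, 0 of the 77 had an adjusted p under 0.05.

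The fold changes were small for the abundant enzymes. The median log2 fold change of deletion over wild type was -0.02 over the 77 and 0.01 over all genes tested, and 42 of the 77 (54.5%) lay below 0, against 47.5% of all. For the 29 enzyme genes with a mean normalized count of at least 1000, fold changes lay between -0.59 and 0.30 on the log2 scale. For the 26 with a mean of 100 to 1000 they lay inside a 2-fold change in either direction, the lowest at -0.74, and for the 22 below 100 they lay between -2.15 and 1.84. The 95% interval of the fold change lay inside a 2-fold change in either direction for 60 of the 77 (77.9%, against 81.8% of all genes tested) and inside a 1.5-fold change for 41. For the other 17, a 2-fold difference was not excluded by the spread between animals. In whole tissue, fewer cells of a type and less RNA per cell cannot be told apart.

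**Figure D2:**
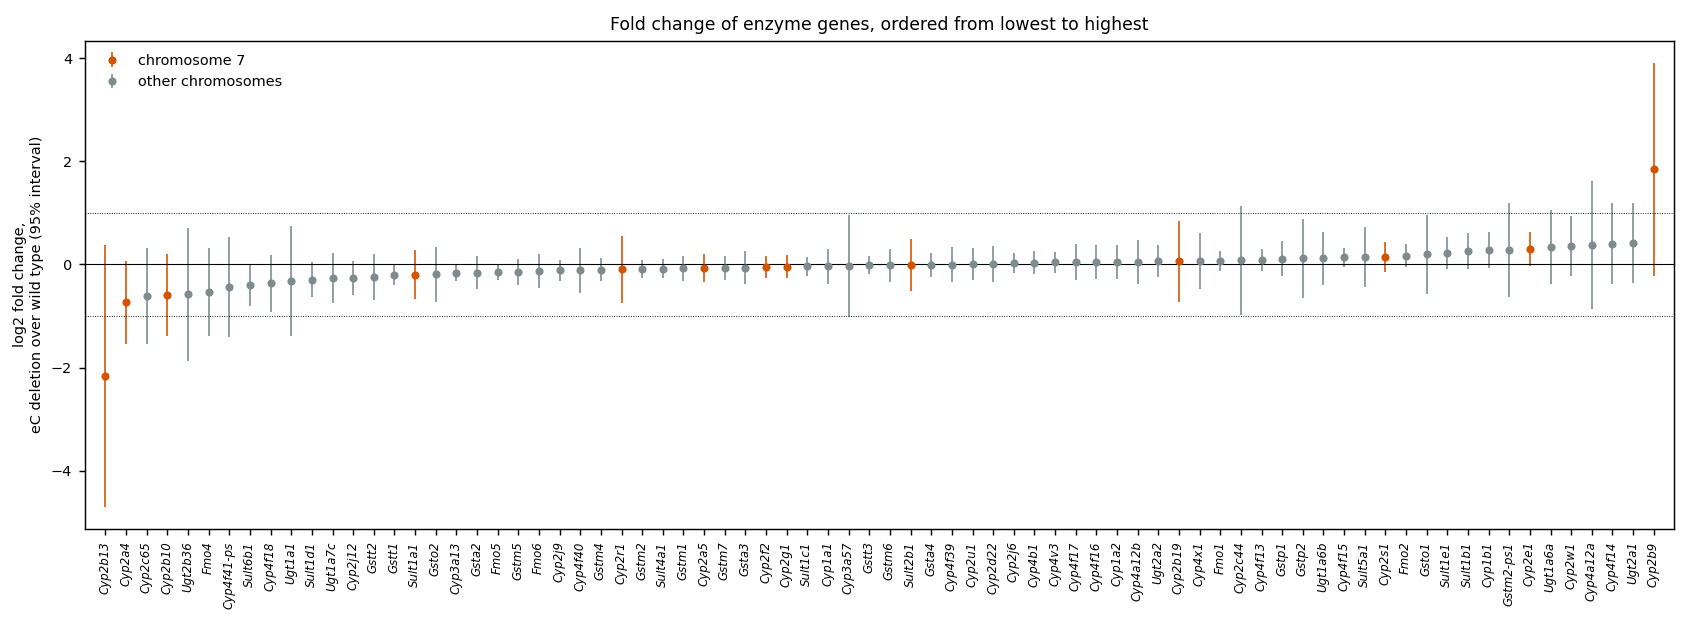
Log2 fold change of eC deletion over wild type (vertical axis, points) with its 95% interval (lines) for the enzyme genes, ordered from lowest to highest, with genes on chromosome 7 in orange and others in grey. Most points lie near 0, dotted lines mark a 2-fold change, and the outermost genes on both sides, Cyp2b13 at -2.15 and Cyp2b9 at 1.84, have the widest intervals.

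Groups without overlap were rare among the enzyme genes, as they were among all genes tested. Ugt2a1 was the only one of the 77 (1.30%) with all 3 deletion values above all wild type values, where 3.66% of all genes tested had that order. Its values came from 18, 16 and 13 reads in deletion libraries and 15, 10 and 10 in wild type libraries. With so few reads and shared exons, this order is uncertain. Fmo5, Cyp3a13 and Gstt1 (3.90%) had all deletion values below all wild type values, where 4.02% of all genes did.

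The abundant phase I P450s overlapped between the genotypes. Cyp2a5, which hydroxylates coumarin and oxidizes nicotine and tobacco nitrosamines, had normalized counts of 369507, 364003 and 379565 in deletion libraries, against 421881, 356552 and 391519 in wild type libraries. The groups overlapped, and the log2 fold change was -0.07 ± 0.12 (SE, 95% interval -0.34 to 0.21). Cyp2g1, a P450 known almost solely from the olfactory mucosa, had 113273, 130154 and 124177 in deletion libraries and 129655, 125723 and 122439 in wild type libraries. Its fold change was -0.04 ± 0.09 on the log2 scale, with the lowest and the highest value both in deletion libraries. Cyp2f2, known for the activation of naphthalene in airway cells, had 64755, 61599 and 69871 in deletion libraries and 73490, 63951 and 64914 in wild type libraries. Its groups overlapped too (log2 fold change -0.04 ± 0.09). Per kb, Cyp2a5 exceeded Cyp2g1 3.17-fold over all libraries.

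Cyp1a2 and Cyp1a1, neighbours on chromosome 9, oxidize aromatic amines and polycyclic hydrocarbons. Cyp1a2 had normalized counts of 22006, 20567 and 16498 in deletion libraries and 22750, 17248 and 17180 in wild type libraries (log2 fold change 0.05 ± 0.14). Cyp1a1 had 4057, 3727 and 5465 in deletion libraries and 3933, 4634 and 4899 in wild type libraries (-0.04 ± 0.15). In both genes the values followed the library sets rather than the genotypes. Per kb, Cyp1a2 stood at 9782 in deletion and 9468 in wild type libraries, and Cyp1a1 at 1585 in deletion and 1611 in wild type libraries.

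Other P450s with low unadjusted p values did not pass either. Cyp3a13 had 2597, 2578 and 2853 in deletion libraries and 2864, 2918 and 3189 in wild type libraries, a log2 fold change of -0.16 ± 0.07. Its groups were adjacent without overlap. Cyp2e1, which oxidizes ethanol and small solvents, had 2790, 3027 and 2560 in deletion libraries and 2792, 1852 and 2230 in wild type libraries (0.30 ± 0.14). The highest wild type value lay inside the deletion range. Cyp1b1, which hydroxylates oestradiol and polycyclic hydrocarbons, had 243, 179 and 198 in deletion libraries and 184, 177 and 148 in wild type libraries (0.28 ± 0.15).

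Cyp2a5, Cyp2g1 and Cyp2f2 belong to a cluster of Cyp2 genes on chromosome 7, the chromosome of the deleted element. Of the 77 enzyme genes, 13 (16.9%) lie on chromosome 7, against 8.65% of all genes tested. The cluster holds 9 of these, in the order Cyp2s1, Cyp2b10, Cyp2b13, Cyp2b9, Cyp2a4, Cyp2b19, Cyp2g1, Cyp2a5 and Cyp2f2, between positions 25802475 and 27133660 (GRCm38, 1.33 Mb). It lies 75.8 to 77.1 Mb from the element. The median log2 fold change of the 13 was -0.04, against -0.01 for all tested genes of the chromosome, and 0 of the 13 passed the test. The other 4 are Sult2b1, Cyp2r1, Sult1a1 and Cyp2e1, at 57.2, 11.6, 23.8 and 37.8 Mb from the element.

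Cyp2b10, Cyp2a4 and Cyp2b13 had a wider range among the deletion libraries than among the wild type libraries. Cyp2b10, which phenobarbital induces in liver, had normalized counts of 524, 1081 and 1632 in deletion libraries, against 1475, 1410 and 1525 in wild type libraries. Deletion replicates 1 and 2 lay below all wild type values and replicate 3 above them. Its fold change was -0.59 ± 0.34 on the log2 scale (limma, adjusted p = 0.982). Cyp2a4, a steroid hydroxylase, had 128, 246 and 390 in deletion libraries and 422, 325 and 416 in wild type libraries (-0.74 ± 0.35). Again deletion replicate 1 was lowest and replicate 2 next, and replicate 3 lay within the wild type range. Cyp2b13 had 0, 8.83 and 32.6 in deletion libraries, from 0, 8 and 27 reads, and 24.4, 31.0 and 34.9 in wild type libraries (-2.15 ± 1.10).

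In these 3 genes the order of the deletion libraries was the same. Deletion replicates 1 and 2, the low ones, belong to set A, as does wild type replicate 1. That wild type library had 1475 for Cyp2b10 and 422 for Cyp2a4. For Cyp2b13 it had 24.4, the lowest of the wild type values. The part of the library sets in this pattern was not tested. Within set A, with 2 deletion libraries and 1 wild type library, the log2 fold change was -0.97 for Cyp2b10 and -1.25 for Cyp2a4. Within set B, with 1 deletion and 2 wild type libraries, it was 0.15 and 0.08 in the same order, and neither set gave a call. Without deletion replicate 3 the fold change was -0.96 for Cyp2b10, -1.11 for Cyp2a4 and -3.30 for Cyp2b13, still with no call (limma, adjusted p between 0.41 and 0.49). Without deletion replicate 1 it was -0.15, -0.31 and -0.76. Of the 55 enzyme genes with a mean of at least 100, Cyp2b10 and Cyp2a4 were the 2 whose highest deletion value was over 2 times the lowest, by 3.11 and 3.05 times, where 1.95% of all genes at that level had such a range. Within wild type, 2 of the 55 (3.64%) had a range that wide, against 1.31% of all genes, and neither lies in this cluster.

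Cyp2b9 went the other way, with normalized counts of 91.1, 53.0 and 14.5 in deletion libraries and 42.9, 4.59 and 5.81 in wild type libraries. Its fold change of 1.84 ± 0.90 (log2) was the highest of the 77 and did not pass (limma, adjusted p = 0.982). The 3 libraries of set A had the highest values in both genotypes, and the fold change was 1.01 in the fit that included the library set. The other low members of the cluster overlapped between the genotypes. Cyp2s1 had 1288, 1080 and 969 in deletion libraries and 1156, 925 and 941 in wild type libraries (0.14 ± 0.13). Cyp2b19, known from keratinocytes, had 44.1, 23.2 and 25.3 in deletion libraries and 32.5, 20.7 and 33.7 in wild type libraries (0.06 ± 0.34).

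**Figure D3:**
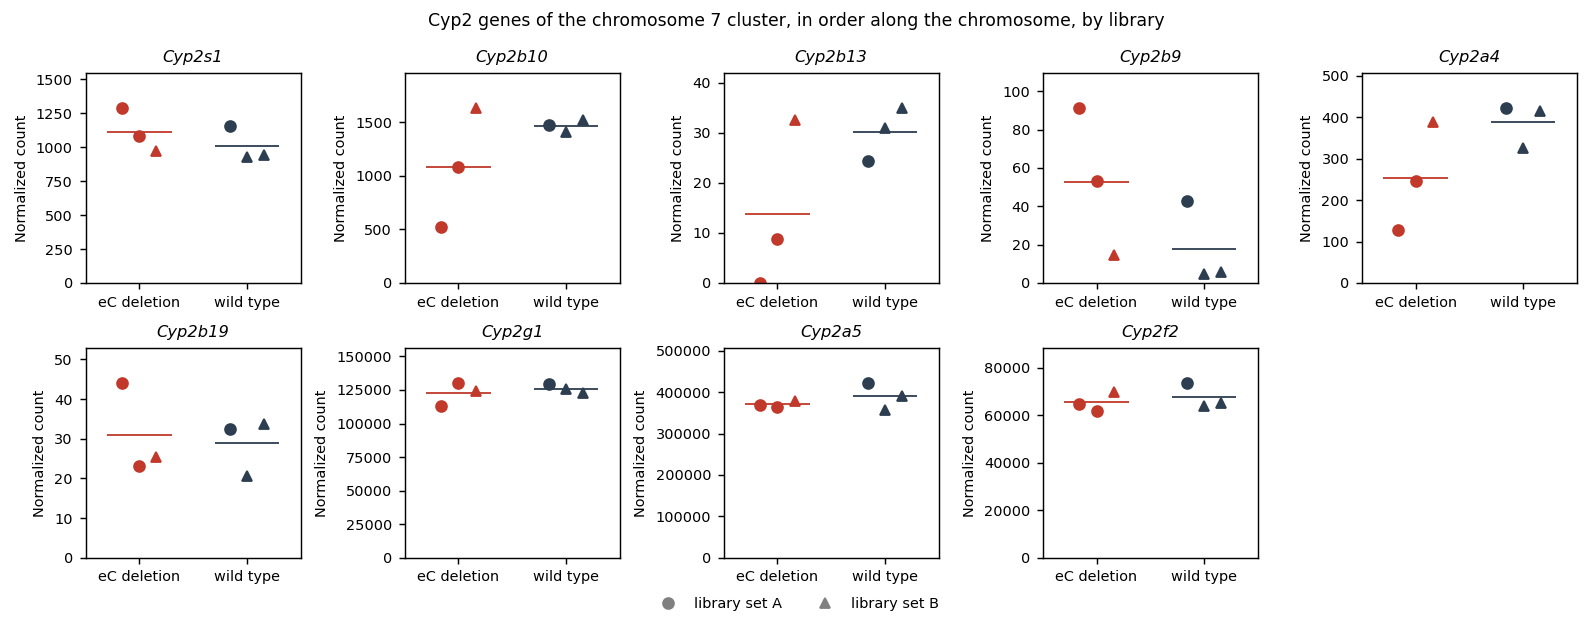
Normalized count (vertical axis, from 0) of the 9 Cyp2 genes of the chromosome 7 cluster in each eC deletion library (red) and wild type library (dark blue), in order along the chromosome, with circles for library set A, triangles for set B and lines for group means. Cyp2b10, Cyp2b13 and Cyp2a4 were low in deletion replicates 1 and 2 and not in replicate 3, whereas Cyp2g1, Cyp2a5 and Cyp2f2 were even across all 6 libraries.

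The remaining chromosome 7 genes overlapped as well. Cyp2r1, a vitamin D 25-hydroxylase and the nearest of the 13 to the element, had 35.9, 26.5 and 21.7 in deletion libraries and 25.1, 33.3 and 30.2 in wild type libraries (log2 fold change -0.09 ± 0.28). Sult1a1, which sulfates simple phenols, had 241, 255 and 418 in deletion libraries and 323, 310 and 384 in wild type libraries (-0.19 ± 0.21). Sult2b1, which sulfates cholesterol, had 107, 89.4 and 103 in deletion libraries and 124, 111 and 72.1 in wild type libraries (-0.01 ± 0.22).

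The 6 flavin-containing monooxygenases, which oxidize nitrogen and sulfur atoms, were led by Fmo6. It had normalized counts of 15222, 14173 and 21240 in deletion libraries and 17522, 17448 and 19439 in wild type libraries. The lowest and highest values were both from deletion libraries (log2 fold change -0.13 ± 0.14). Fmo5 had 4595, 4366 and 4723 in deletion libraries and 4990, 5324 and 4899 in wild type libraries, a fold change of -0.15 ± 0.07 on the log2 scale. Its groups did not overlap, with an unadjusted p of 0.0469 and an adjusted p of 0.982 (limma). Fmo2 had 7354, 7017 and 6041 in deletion libraries and 6661, 5545 and 5930 in wild type libraries (0.17 ± 0.10), and Fmo1 differed by 0.07 ± 0.09.

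The 17 glutathione S-transferases were led by the mu class genes Gstm1, Gstm2 and Gstm5 and by Gsta4, which conjugates products of lipid peroxidation. Gstm1 had normalized counts of 27469, 28326 and 32221 in deletion libraries and 35342, 28532 and 29056 in wild type libraries (log2 fold change -0.07 ± 0.11). The groups overlapped. Gstm2, Gstm5 and Gsta4 differed by -0.09 ± 0.08, -0.15 ± 0.11 and -0.01 ± 0.10. Gstt1, of the theta class, had 577, 608 and 640 in deletion libraries and 726, 653 and 731 in wild type libraries. Its groups did not overlap, and its fold change of -0.21 ± 0.08 (log2) had the lowest unadjusted p of the 77, 0.0394 (limma, adjusted p = 0.982). Over the family, fold changes lay between -0.25 and 0.28, with 13 of 17 below 0 and a median of -0.07.

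Of the 9 sulfotransferases, Sult1c1, an enzyme known from the olfactory mucosa, was the highest per kb, with 20335 in deletion and 20895 in wild type libraries. It had normalized counts of 32435, 30748 and 31743 in deletion libraries and 32085, 30567 and 34886 in wild type libraries (log2 fold change -0.04 ± 0.08), and its values were nearly equal in all 6. Sult1d1, which sulfates catecholamines, had 18166, 21082 and 26131 in deletion libraries and 22970, 27148 and 29408 in wild type libraries (-0.29 ± 0.14). The ranges overlapped, and the lowest value in each genotype was the replicate 1 library of set A. Sult1e1, which inactivates oestrogens, had 3565, 3071 and 2904 in deletion libraries and 3188, 2216 and 2828 in wild type libraries (0.22 ± 0.14). Sult4a1, a neuronal member with no well established substrate, differed by -0.08 ± 0.08. Sult6b1 had 594, 994 and 818 in deletion libraries and 938, 1102 and 1068 in wild type libraries (-0.40 ± 0.17).

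The 7 glucuronosyltransferases were low, from 5.13 to 167 per kb of exon over all libraries. Ugt1a7c had normalized counts of 584, 489 and 869 in deletion libraries and 631, 767 and 883 in wild type libraries (log2 fold change -0.26 ± 0.21), and Ugt2a2 had 433, 466 and 358 in deletion libraries and 460, 382 and 362 in wild type libraries (0.06 ± 0.13). Both pairs of groups overlapped. Ugt1a6b differed by 0.12 ± 0.22, and Ugt1a1, the enzyme that conjugates bilirubin, by -0.32 ± 0.46. Ugt2a1 differed by 0.41 ± 0.34. Shared sequence limits this family more than any other here: more than 25% of the 50-base windows of 15 of the 77 genes occur in another gene, among them Ugt2a1 (97.0%), Ugt2a2 (93.6%), Ugt1a6b (79.8%), Ugt1a1 (58.2%) and Ugt1a7c (53.7%). For 25 of the 77 genes no window is shared.

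Values near the level threshold were low in all libraries. The lowest members by mean were Cyp4a12a, with 12.0, 5.52 and 15.7 in deletion libraries and 8.87, 4.59 and 10.5 in wild type libraries, Ugt2b36 with a mean of 10.6, and Ugt2a1 with 13.5. The highest genes below the threshold were Cyp2j8, Gsta1 and Cyp2j13, with means of 9.69, 9.35 and 9.20. No member reached the threshold through 1 genotype alone, and 70 of the 77 reached it in all 6 libraries.

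Some enzyme genes differed between the library sets, in about the same share as genes at large. In a limma fit with genotype and set as terms, 8 of the 77 (10.4%) differed between set B and set A past the adjusted threshold, against 9.97% of all genes tested, which is near that background. The 8 were Cyp2b9, Cyp1a2, Cyp1a1, Ugt1a7c, Gstm5, Sult1d1, Cyp2c44 and Fmo2. The log2 difference of set B minus set A was -0.38 for Cyp1a2, 0.38 for Cyp1a1, 0.36 for Sult1d1 and -0.23 for Fmo2. In the same fit, 0 enzyme genes passed for genotype. The sets were defined from these data, and what separates them was not tested.

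**Figure D4:**
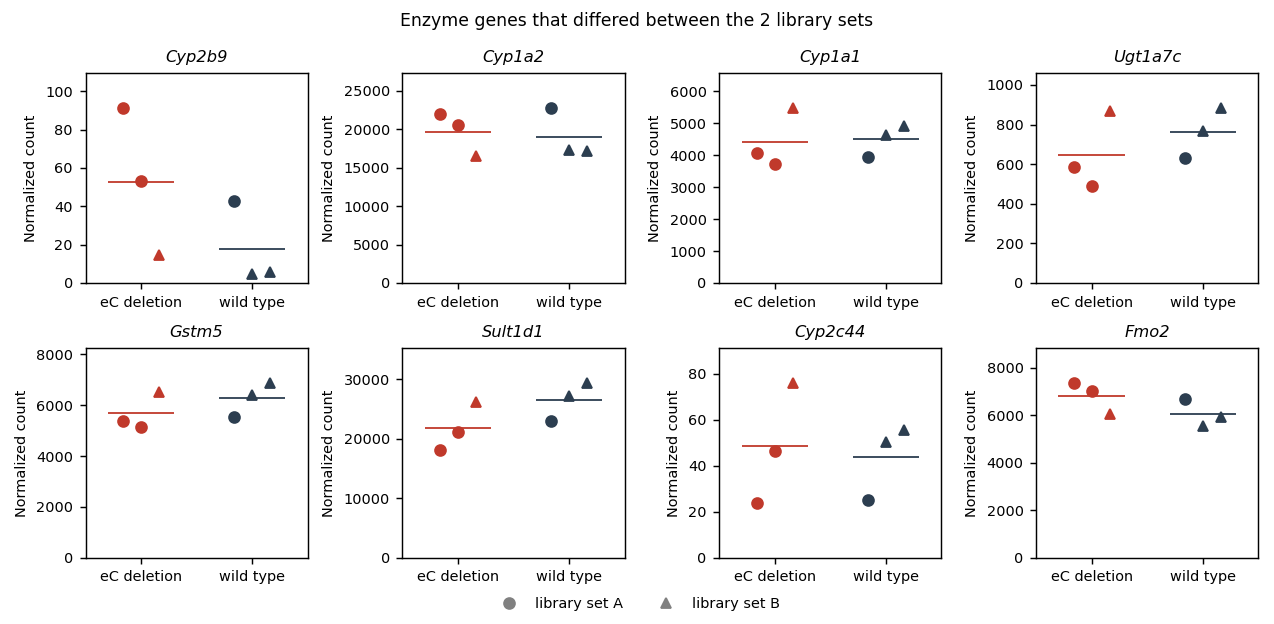
Normalized count (vertical axis, from 0) of the 8 enzyme genes that passed the test between library sets, in each eC deletion library (red) and wild type library (dark blue), with circles for set A, triangles for set B and lines for genotype means. In both genotypes the triangles lie on the same side of the circles, below them for Cyp2b9, Cyp1a2 and Fmo2 and above them for the other 5.

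Gsto1, an omega class transferase, varied among the wild type libraries, with a highest over lowest ratio of 2.46. It had normalized counts of 3677, 2219 and 3453 in deletion libraries and 4577, 1861 and 2212 in wild type libraries. Wild type replicate 1 was highest of all 6, and the log2 fold change was 0.19 ± 0.33. It was 0.77 within set B, where deletion replicate 3 is the lone deletion library, and -0.68 within set A, where wild type replicate 1 is the lone wild type library.

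None of the genes tested that work beside these enzymes passed the test between the genotypes. Among 25 other phase I enzymes and electron donors, 0 passed the test in either direction. Their median log2 fold change was 0.02, with 10 of the 25 below 0. Adh5, which oxidizes the glutathione adduct of formaldehyde, differed by -0.12 ± 0.06, and the esterase Ces1f by -0.29 ± 0.17. Among 17 other conjugating enzymes and makers of their cosubstrates, 0 passed (median -0.03, with 12 of the 17 below 0). Gclc and Gsr, which make glutathione and keep it reduced, differed by 0.22 ± 0.11 and 0.13 ± 0.07. Of 8 efflux transporters 0 passed (median 0.06), with Abcc5 at 0.10 ± 0.10 and Abcb1b at -0.22 ± 0.23. Of 11 factors that sense xenobiotics, 10 were tested and 0 passed (median 0.09). Ahr and Arnt differed by 0.12 ± 0.07 and 0.10 ± 0.09, and Hnf4a was below the filter.

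The markers of the cells of the mucosa give the cellular frame of these values, and 0 markers passed the test. Their part in the enzyme values was not tested. The summed normalized counts of 8 sustentacular markers outside the enzyme families ranged from 222661 to 233959 in deletion libraries and from 215780 to 256974 in wild type libraries (median log2 fold change 0.03). Sec14l3 and Cbr2 made up most of each sum, and Cbr2 is also among the other phase I enzymes above. Epas1 and Notch2 had the smallest unadjusted p of the sustentacular list, with 0.22 ± 0.23 and 0.17 ± 0.14. The 4 Bowman's gland markers summed to between 88714 and 109494 in deletion and between 85100 and 100439 in wild type libraries (median 0.09), with Aqp5 at 0.15 ± 0.15 and Gpx6 at 0.09 ± 0.11.

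The 7 markers of mature olfactory neurons summed to between 350185 and 436290 in deletion and between 390859 and 473480 in wild type libraries (median -0.10). Gng13 and Omp, which mark mature neurons, differed by -0.24 ± 0.13 and -0.19 ± 0.13. The 4 markers of immature neurons summed to between 32240 and 33067 in deletion and between 31231 and 33338 in wild type libraries (median -0.04), with Tubb3 at -0.11 ± 0.07 and Dpysl3 at 0.12 ± 0.10. The 4 horizontal basal cell markers summed to between 3893 and 5583 in deletion and between 3401 and 5276 in wild type libraries (median 0.23), with Trp63 at 0.33 ± 0.13 and Icam1 at 0.31 ± 0.24. Of 5 respiratory epithelium markers, 4 were tested and Scgb1a1 fell below the filter. Those tested summed to between 285530 and 398380 in deletion and between 232602 and 378754 in wild type libraries (median 0.27), with Dnah5 at 0.50 ± 0.18 and Foxj1 at 0.19 ± 0.09. Bpifa1, at 0.23 ± 0.21, made up most of each of these sums. The 8 blood and vessel markers summed to between 2303 and 2939 in deletion and between 2269 and 2806 in wild type libraries (median -0.06), with 4 of 8 below 0. The red cell genes Alas2 and Hba-a1, with the smallest unadjusted p, were at -0.49 ± 0.14 and -0.43 ± 0.18, and Hba-a2 at -0.42 ± 0.21. The vessel genes Cdh5 and Pecam1 were at 0.14 ± 0.22 and 0.12 ± 0.22. The leukocyte genes Cd68, Ptprc and S100a8 were at 0.14 ± 0.21, 0.01 ± 0.16 and -0.12 ± 0.31. Between the library sets, the median log2 difference of set B minus set A was -0.41 for horizontal basal cell, -0.40 for respiratory, -0.33 for Bowman's gland, -0.32 for sustentacular and for blood and vessel, 0.23 for mature neuron and 0.13 for immature neuron markers.

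**Figure D5:**
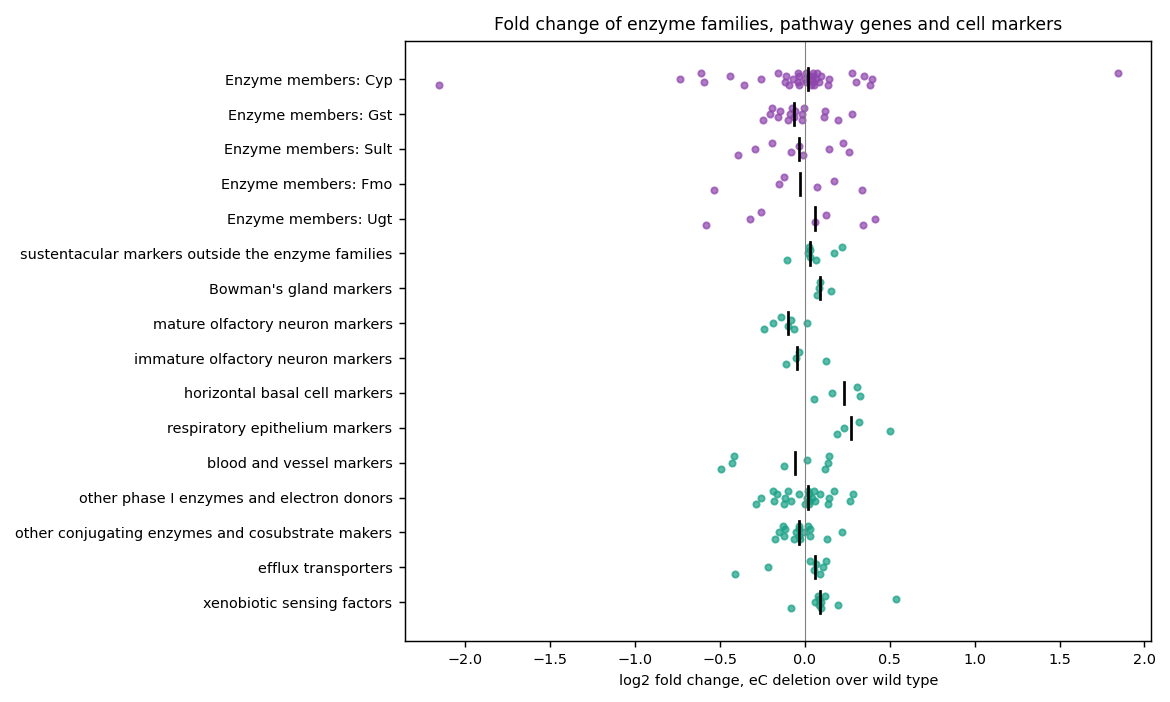
Log2 fold change of eC deletion over wild type (horizontal axis) for each enzyme gene by family (purple points) and for each gene of the pathway and cell marker lists (green points), with vertical bars at the medians. The family medians lie between -0.07 and 0.06, and the respiratory and horizontal basal cell lists have the highest medians, 0.27 and 0.23 (0.18 and 0.04 in the fit that includes the library set), with no gene past the test.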

How the data were processed

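Total RNA of dissected olfactory mucosa was depleted of ribosomal RNA and made into stranded libraries, per the labels' protocols. The submitters' processing notes name STAR 2.6.0 as a tool, DESeq2 as another, and GRCm38.p6 as the build. How reads were counted (program, gene models, strand) is not given in the sources used here. The authors deposited 1 table of 40273 genes with a normalized value for each library, a signal that is never negative, made from gene counts divided by 1 size factor per library. Further deposited columns give a log2 fold change by the authors (wild type over deletion, the reverse of the direction used here), its standard error, a statistic (a deposited score), and a deposited p-value, raw and adjusted, from which only a count of genes was taken.

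Dividing each value by that of a single read gave whole numbers for 100% of the values in each library (tolerance 0.001 reads), so reads were recovered. They summed to 49279931, 34169776 and 30342763 in deletion replicates 1 to 3 and to 50906277, 31281010 and 31100948 in wild type replicates 1 to 3. Their number limits the precision of genes with few reads. A chi-square statistic per gene between libraries of a group lay between 17.4 and 47.5.

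The test was limma 3.58.1 with trend (R 4.3.3) on log2(value + 1), with genotype alone in the model. It covered 20368 genes that reached a value of 10 in 3 or more libraries, and p was adjusted by Benjamini-Hochberg (threshold 0.05). On this scale the added 1 shrinks ratios between low values, but a single library at or near 0 can enlarge the fold change of a low gene. Cyp2b13, at -2.15 with 0 in deletion replicate 1, had group means of 13.8 in deletion and 30.1 in wild type libraries. Alternatives were edgeR 4.0.16 (quasi-likelihood) and DESeq2 1.42.0 on the recovered reads, a pseudocount of 5, no filter or a filter of 50, the library set as a term or analysed alone, the replicate number as a block, and each library left out. The limma step was tested on simulated data.

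Positions and exon lengths came from GENCODE vM21 on GRCm38, which held 40012 of the gene identifiers without their version and all 77 enzyme genes. Promoters came from RefSeq. Shared sequence was measured on windows of 50 bases of the annotated transcripts. Replicate numbers were not used as pairs in the main fit. The enzyme genes and the gene lists were chosen with earlier results of these data known, so they are not independent of them.

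Genes were named by rule: the given markers, the 4 highest of each family per kb, members past a threshold, the 4 with the smallest p in each direction, the 3 members with the lowest means and the 3 genes just below the threshold, members on chromosome 7, and 2 genes of each list. Gsto1, Gm44964, Gm45225 and BC026762 were added after their values were seen. The values of 1 enzyme gene are not reported here, and it is left out of the plots that name genes.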

Additional observations from a re-analysis of the deposited data

How the results depend on the processing

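With 3 animals per genotype and few reads for the low genes, 2-fold differences of 17 of the 77 enzyme genes lie within the intervals, and interval and p measure the spread between these animals only. The count of enzyme genes past the threshold was 0 with edgeR, DESeq2, a pseudocount of 5, both filters, the library set as a term, library set A alone and the replicate block, and from 0 to 0 when each library was left out. The count of the 60 tested pathway genes was 0 under the same settings, and from 0 to 0 when each library was left out. These counts of 0 do not cover library set B alone, for which no count of calls is given. Within set B the log2 fold change was 0.84 for Aldh3a1 and 0.73 for Adh7. That of Gsto1 is given above. The fit within set B sets the single library of deletion replicate 3 against 2 wild type libraries and assumes that the lone library varies like the others. The sets were also defined from these data, so these values compare libraries and say nothing of the genotype. In the fit of all 6 libraries the log2 fold change was 0.19 ± 0.33 for Gsto1, 0.13 ± 0.29 for Aldh3a1 and 0.27 ± 0.27 for Adh7, with overlapping groups. The cause was not tested.

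Over the alternatives the number of enzyme genes with an unadjusted p under 0.05 ranged from 0 without deletion replicate 1 (1.89% of all genes tested) to 15 without deletion replicate 3 (19.5%, against 8.51% of all genes tested), and their median log2 fold change ranged from -0.11 to 0.08. Of 546 alternative values of the 37 named enzyme genes, 497 stayed within 1 standard error of the reported one, 49 moved further and 0 passed the test. Of these values 45 had the other sign, and 16 of the 37 genes kept 1 sign throughout. Over all genes, the calls numbered 15 as reported, 15 with edgeR, 40 with DESeq2, 36 with the library set as a term, 2 within set A and 90 within set B, and leaving out 1 library gave 11, 6 and 24 (deletion replicates 1, 2 and 3) and 9, 6 and 10 (wild type replicates 1, 2 and 3).

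Deviations from the group means correlated with r = 0.65, -0.34 and 0.66 for the same-numbered replicates 1, 2 and 3. Differently numbered libraries of a set correlated too, with 0.50 for deletion replicate 2 and wild type replicate 1. For deletion replicate 3 and wild type replicate 2 it was 0.58. The correlations followed the library sets, so they cannot show whether animals were paired. With the replicate block, 0 enzyme genes and 0 pathway genes passed, 14 enzyme genes (18.2%, against 10.9% of all genes tested) had an unadjusted p under 0.05, and 46 genes passed in the whole table.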

Other observations

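Besides the 9 enzyme genes, 6 other genes in the Cyp2 cluster were tested, and 0 passed the limma test between the genotypes. The predicted gene Gm44964 had normalized counts of 3066, 1941 and 6.04 in deletion libraries and 1928, 1.15 and 5.81 in wild type libraries, so the 3 libraries of set A were high and those of set B low in both genotypes. Of its 50-base windows, 47.8% also occur in Cyp2g1, which they cover by 5.11%, and Cyp2g1 itself was even across the libraries. Gm45225, a predicted gene that shares sequence with Cyp2b13, had 48.6, 81.7 and 177 in deletion libraries and 86.5, 129 and 173 in wild type libraries. The nearby BC026762 had 0, 23.2 and 57.9 in deletion libraries and 13.3, 34.4 and 34.9 in wild type libraries. Both were higher in every library of set B than in every library of set A, in both genotypes. The log2 difference of set B minus set A was 1.13 for Gm45225 (limma, adjusted p = 0.026), and BC026762 did not pass that test (adjusted p = 0.16).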
